A study of Mus musculus with 10 samples.

Results

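Classical cadherins and catenins are the membrane and cytoplasmic parts of the adherens junction. The genes described here were taken as a list of 10 symbols from this family, matched through their Entrez identifiers, out of 24594 genes in the count table. They are the type I cadherins Cdh1 (E-cadherin), Cdh2 (N-cadherin), Cdh3 (P-cadherin) and Cdh4 (R-cadherin), the membrane-anchored Cdh13 (T-cadherin), and the catenins Ctnna1, Ctnna2, Ctnnb1, Ctnnd1 and Ctnnd2. All 10 were found in the table and 9 passed the filter on low counts, whereas Cdh4 did not. Poly(A) RNA was sequenced from mammary epithelial cells of wild-type C57BL/6J mice, virgin and, for the study's mice as a whole, 12 to 20 weeks old. Mammary tissue was dissociated with enzymes, blood and endothelial cells were stained with antibodies to TER-119, CD31 and CD45, and the epithelium was sorted by EpCAM and CD49f into luminal cells (5 libraries) and basal cells (5 libraries). Both groups share strain, genotype and dissociation, no agent was given, and each sorted group mixes the subtypes of its layer. The comparison asks how the luminal and the basal layer of the resting gland differ in these genes.

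Classical cadherins hold neighbouring cells together by calcium-dependent binding of their outer domains, mostly to the same cadherin on the next cell. Their cytoplasmic tails bind p120-catenin (Ctnnd1) near the membrane, which keeps the cadherin at the surface, and beta-catenin (Ctnnb1) or plakoglobin (Jup) further along, which in turn bind alpha-catenin (Ctnna1) and through it the actin cytoskeleton. In the mammary gland E-cadherin joins luminal cells and P-cadherin is known as a cadherin of the basal, myoepithelial layer. Beta-catenin also acts in the nucleus as the effector of canonical Wnt signalling.

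Sample titles named the other cell type than the cell type label in 10 of 10 libraries. Groups follow the cell type label, which the source name and the letter in the library description share, and all 10 luminal markers (such as Krt8, Krt18 and Elf5) and all 9 basal markers (such as Krt5, Krt14 and Trp63) were higher in the group so labelled. Library totals ran from 13203146 to 17565471 counts in the luminal and from 13676558 to 17998165 in the basal group. The labels do not say whether the libraries of a group came from separate mice, so p-values measure the spread between these libraries. In bulk RNA, fewer cells of a type and less RNA per cell cannot be told apart. Unless another scale is named, levels are CPM (counts scaled to the same TMM-adjusted library total), errors are SD over n = 5 libraries, and log2 fold changes are luminal minus basal with their SE.

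Cdh3 and Cdh1 lie in tandem on the plus strand of chromosome 8 in GRCm38 (mm10), Cdh3 at chr8:106510852-106556911 and Cdh1 at chr8:106603350-106670247, with 46438 bases and 3 other RefSeq genes between them. Because these neighbours carry the clearest contrast of the family and the reads were only 51 bases long, the stretch around the longest identical run of their transcripts is shown. Each line is a 51-base window of the coding sequence in exon 5 of the 16-exon transcript, and the capitals mark the 16 bases of that run.
Cdh1, chr8:106653778-106653828, plus strand: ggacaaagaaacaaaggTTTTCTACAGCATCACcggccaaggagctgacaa
Cdh3, chr8:106536830-106536880, plus strand: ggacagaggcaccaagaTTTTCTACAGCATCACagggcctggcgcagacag
The windows differ at 12 of 51 positions, so a read of that length from either window has bases that the other gene lacks. The longest identical run was 26 bases between Cdh1 and Cdh2, 23 bases between Cdh1 and Cdh4, and 35 bases between Ctnna1 and Ctnna2. No 51-base stretch of the longest coding transcript of any of the 5 cadherins, or of Ctnna1, Ctnna2 or Ctnnd2, recurred in a transcript of another annotated gene.

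E-cadherin was the most abundant cadherin of luminal cells and was 2.40-fold higher there than in basal cells. Luminal libraries 1 to 5 held Cdh1 at 1405, 1266, 1086, 1391 and 1502 CPM, and basal libraries 1 to 5 at 646, 524, 505, 587 and 507 CPM. Every luminal library lay above every basal one, with means of 1330 ± 160 and 554 ± 61.4 CPM. The log2 fold change was 1.26 ± 0.15 (edgeR adjusted p = 5.11e-06). Cdh1 was therefore lower in the basal group without being low, at 6528 to 10362 counts a library. Luminal markers as a list summed to 10520 to 15590 CPM in the luminal and 1359 to 1765 CPM in the basal libraries. Basal library 1 had both the highest of these basal sums and the highest basal Cdh1, whereas basal library 3 had the next highest sum (1554 CPM) and the lowest basal Cdh1. Single luminal markers differed widely in the basal group. Krt8, Krt18, Krt19 and Epcam, most of the sum, averaged 510, 540.5, 91.5 and 344 CPM there, and Esr1 and Pgr 15.8 and 7.61 CPM. Elf5, Kit, Prlr and Cd14 averaged 0.165, 1.19, 0.993 and 2.58 CPM, against 92.0, 182, 1190 and 935 CPM in luminal cells. The part of residual luminal cells in the basal Cdh1 counts was not tested.

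P-cadherin showed the opposite and much larger contrast. Luminal libraries held Cdh3 at 5.25, 4.635, 3.56, 4.505 and 3.045 CPM, that is 48 to 88 counts each, whereas basal libraries held it at 464, 610, 587, 484 and 493 CPM. The lowest basal library had 7445 counts, so the groups were far apart. Means were 4.2 ± 0.886 and 528 ± 66.2 CPM, and the log2 fold change was -6.97 ± 0.21 (edgeR adjusted p = 2.75e-11), a 125-fold difference. Of the 14609 genes tested, 133 had a log2 fold change at or below that of Cdh3. Basal markers as a list summed to 43.9 to 121 CPM in the luminal and 13820 to 19180 CPM in the basal libraries. Luminal library 5 had the highest of these luminal sums and the lowest Cdh3. The part of residual basal cells in the luminal Cdh3 counts was not tested.

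**Figure D1:**
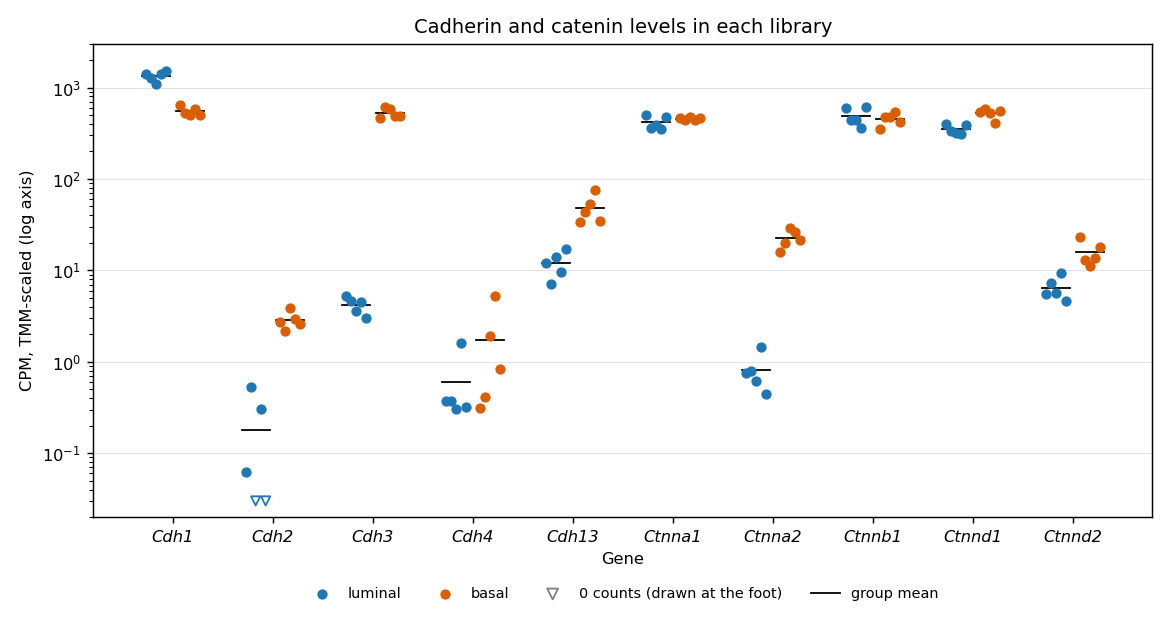
CPM of each of the 10 genes on a log axis, 1 point a library (blue luminal, orange basal), with a line at the group mean; open triangles stand for 0 counts. Points of the groups separate for Cdh1, Cdh2, Cdh3, Cdh13, Ctnna2, Ctnnd1 and Ctnnd2 and overlap for Cdh4, Ctnna1 and Ctnnb1.

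Dividing the counts by transcript length (4430 bases for Cdh1, 4843 for Cdh2, 4384 for Cdh3 and 6388 for Cdh4) gave each cadherin's share of the summed type I level within a library, a value that does not depend on how libraries are scaled. Cdh1 made up 99.6%, 99.57%, 99.65%, 99.57% and 99.78% of that sum in luminal libraries 1 to 5, and 57.8%, 45.8%, 45.8%, 54.2% and 50.3% in basal libraries 1 to 5. The luminal layer was thus nearly all E-cadherin at the RNA level, and the basal layer held close to equal levels of E- and P-cadherin. The share of Cdh3 was 0.321 ± 0.0689% in luminal and 48.9 ± 5.29% in basal cells, and that of Cdh2 0.0124 ± 0.0165% and 0.241 ± 0.0527%, a difference of -0.228 points that was -0.139 points with union exon length. For Cdh1, Cdh2 and Cdh3 the groups did not overlap, and the exact 2-sided permutation test gave p = 0.00794 each, the smallest p that the 252 splits of 5 against 5 allow, or 0.0119 adjusted over the 6 shares and ratios tested. The share of Cdh4 was 0.0305 ± 0.0275% and 0.111 ± 0.130%, with overlapping groups (exact permutation p = 0.190, adjusted 0.229). Basal library 4 carried much of the basal mean, and without it the difference went from -0.0808 to -0.0254 points. Luminal library 4 carried much of the luminal mean, at 0.0796% against 0.0146 to 0.0201% in the others, and without it the difference was -0.0931 points.

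The log2 ratio of Cdh3 to Cdh1 per length was -8.05, -8.08, -8.24, -8.26 and -8.93 in luminal libraries 1 to 5. In basal libraries 1 to 5 it was -0.46, 0.24, 0.23, -0.26 and -0.03, so P-cadherin exceeded E-cadherin in 2 basal libraries and stayed below it in the other three. Group means were -8.31 ± 0.36 and -0.06 ± 0.31 (exact permutation p = 0.00794, adjusted 0.0119). The log2 ratio of the summed type I cadherins to beta-catenin was 1.18 ± 0.29 in luminal and 0.99 ± 0.23 in basal cells. These groups overlapped, and no difference was called (exact permutation p = 0.317 before and after adjustment).

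**Figure D2:**
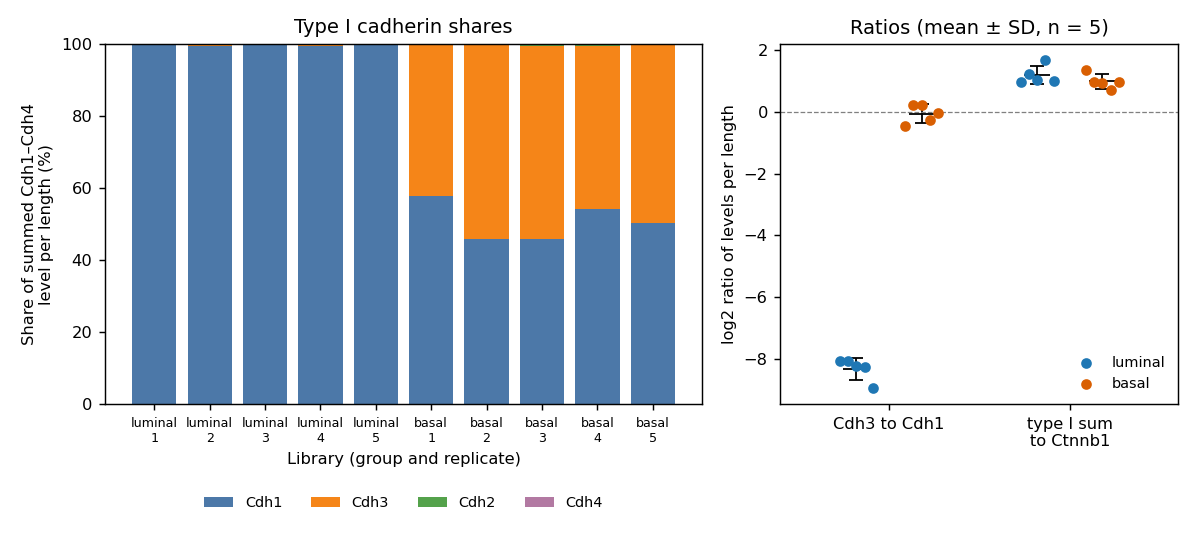
Left, stacked bars of each type I cadherin's share (percent) of the summed Cdh1 to Cdh4 level per length, 1 bar a library. Right, log2 ratios per length for each library with mean ± SD (n = 5); the Cdh3 to Cdh1 ratio lies near -8 in luminal and near 0 in basal libraries, whereas the ratio of the summed cadherins to Ctnnb1 overlaps.

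The other cadherin members, Cdh2, Cdh4 and Cdh13, were minor beside Cdh1 and Cdh3 in basal cells. N-cadherin, a cadherin of nerve and mesenchymal cells, was counted 1, 10, 0, 4 and 0 times in luminal libraries 1 to 5 and 44, 32, 50, 47 and 43 times in basal libraries 1 to 5. The groups did not overlap, at 0.179 ± 0.232 and 2.86 ± 0.628 CPM, and the log2 fold change was -3.91 ± 0.71 (edgeR adjusted p = 0.000229). With 15 luminal counts in all, its size is loosely fixed: without luminal library 2, which held 10 of them, it was -4.94 (edgeR adjusted p = 8.5e-05). Pericyte markers, which were also higher in basal cells for 4 of 6 genes (Rgs5, Pdgfrb, Cspg4 and Kcnj8), summed to 94.9 to 269 CPM in luminal libraries, mostly Notch3, and to 35.4 to 48.8 CPM in basal libraries, and none was at 0 throughout a group. Fibroblast markers summed to 23.7 to 111 CPM in luminal and 26.7 to 41.7 CPM in basal libraries, with 1 of 6 higher in luminal cells (Dcn), 1 in basal cells (Pdgfra), 4 not called and none at 0 throughout a group. The part of either cell type in the Cdh2 result was not tested.

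R-cadherin was counted 6, 7, 5, 21 and 5 times in luminal and 5, 6, 25, 83 and 14 times in basal libraries 1 to 5. The groups overlapped, and basal library 4 alone held 83 of the 133 basal counts. Cdh4 did not pass the filter and was not tested over all 10 libraries. Without basal library 1 it passed and was called higher in basal cells (-1.85 ± 0.75, edgeR adjusted p = 0.0479), and in the other fits it entered it was not called.

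T-cadherin, which lacks a cytoplasmic tail and so binds no catenin, was 4.03-fold higher in basal cells. Cdh13 stood at 12.0, 7.16, 13.9, 9.54 and 17.1 CPM in luminal libraries 1 to 5 and at 33.8, 43.05, 52.6, 76.3 and 34.3 CPM in basal libraries 1 to 5. The groups did not overlap, although the basal libraries were spread widely, and the log2 fold change was -2.01 ± 0.27 (edgeR adjusted p = 1.5e-05). Basal library 4, the highest for Cdh13, also had the highest sums of leukocyte markers (34.8 CPM) and adipocyte markers (8.88 CPM) of its group, and their part in that value was not tested. Its endothelial sum, 10.9 CPM, was near the lowest of the group. In basal cells the leukocyte sum was mostly Cd74 (20.7 ± 7.9 CPM), the only one of the 7 called higher there. Cd52 and Lyz2 were higher in luminal cells, 4 were not tested, and Cd3e was at 0 throughout. The adipocyte sum was mostly Fabp4 (5.4 ± 1.7 CPM), with the other 4 of 5 not tested and Adipoq at 0 throughout. T-cadherin is also found on endothelial cells, which a gate on CD31 would remove, as one on CD45 would remove leukocytes. Endothelial markers summed to 4.44 to 7.94 CPM in luminal and 10.8 to 18.4 CPM in basal libraries, with 1 of 7 higher in luminal cells (Egfl7), 2 higher in basal cells (Cdh5 and Cldn5), 1 not called (Pecam1), 3 not tested and none at 0 throughout a group, and their part in the Cdh13 result was not tested.

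Beta-catenin and alpha-E-catenin, the core links from cadherin to actin, did not differ by the test. Ctnnb1 stood at 591, 441, 439, 360 and 611 CPM in luminal libraries 1 to 5 and at 356, 478, 477, 536 and 425 CPM in basal libraries 1 to 5. Both the highest and a value near the lowest came from luminal libraries, so the basal range lay almost wholly inside the luminal one. Its log2 fold change was 0.10 ± 0.18 (edgeR adjusted p = 0.626). Of its 51-base windows, 18.5% also occur in transcripts of Ulk4, which overlaps Ctnnb1 on the other strand and held 54.4 ± 17.5 and 35.6 ± 16.8 CPM in luminal and basal cells; whether the counting used strand is not given in the sources used here.

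Ctnna1 stood at 502, 363, 391, 351 and 476 CPM in luminal libraries 1 to 5 and at 468, 438, 476, 442 and 470 CPM in basal libraries 1 to 5. The groups overlapped, with the basal libraries close together (459 ± 17.4 CPM) and the luminal ones more spread (416 ± 68.2 CPM). Its log2 fold change was -0.14 ± 0.14 (edgeR adjusted p = 0.406). A p above the threshold does not show equal levels; the SE of both genes leaves room for small differences in either direction.

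P120-catenin was modestly higher in basal cells, by 1.48-fold. Ctnnd1 stood at 404, 339, 319, 312 and 385 CPM in luminal libraries 1 to 5 and at 536, 577, 533, 411 and 554 CPM in basal libraries 1 to 5. The groups came within a few CPM of each other at luminal library 1 and basal library 4 but did not overlap, and the log2 fold change was -0.57 ± 0.15 (edgeR adjusted p = 0.00324). The gene model Gm28635 on the same strand shares 69.5% of the 51-base windows of Ctnnd1, so reads there have more than 1 annotated origin.

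The catenins best known from nerve cells, alpha-N-catenin (Ctnna2) and delta-catenin (Ctnnd2), were low in both layers and higher in basal cells. Ctnna2 was counted 12, 15, 10, 19 and 7 times in luminal and 257, 295, 376, 418 and 359 times in basal libraries 1 to 5. Its levels were 0.810 ± 0.383 and 22.6 ± 5.13 CPM without overlap, and the log2 fold change was -4.81 ± 0.30 (edgeR adjusted p = 7.26e-09). Ctnnd2 stood at 5.50, 7.22, 5.71, 9.39 and 4.57 CPM in luminal libraries 1 to 5 and at 22.9, 13.1, 11.3, 13.8 and 18.04 CPM in basal libraries 1 to 5. Its groups did not overlap and the log2 fold change was -1.29 ± 0.25 (edgeR adjusted p = 0.000418). Nerve and Schwann cell markers summed to 361 to 460 CPM in luminal and 411 to 448 CPM in basal libraries, overlapping ranges, with 1 of 7 higher in luminal cells (Mbp), 3 higher in basal cells (Sox10 and Ngfr among them), 1 not called, 2 not tested and none at 0 throughout a group; their part in the Ctnna2 and Ctnnd2 results was not tested.

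**Figure D3:**
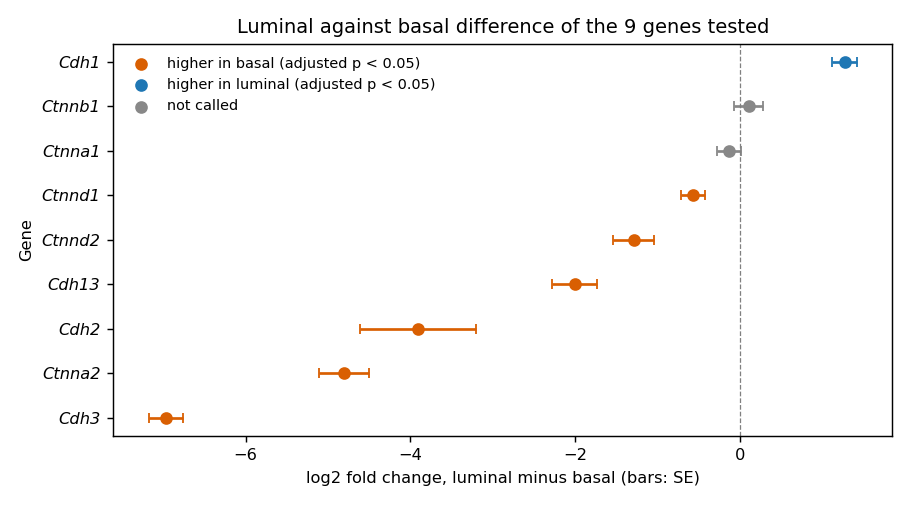
Log2 fold change (luminal minus basal, bars SE) of the 9 genes tested, coloured by call at an edgeR adjusted p under 0.05. Cdh1 at 1.26 is the only one called higher in luminal cells, Ctnnb1 and Ctnna1 lie at 0 within about 1 SE, and Cdh3 at -6.97 lies farthest to the basal side.

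Promoter sequence of 4 of the 10 members was matched by symbol in the RefSeq table for GRCm38.p6 (Ctnna2, Ctnnb1, Ctnnd1 and Ctnnd2). The bases upstream of Ctnna2 and Ctnnd2, the catenins that were both low and basal-higher, are shown with those of Ctnnb1, which was abundant and not called. They end 1 base before the gene and read 5′ to 3′ on the gene's strand, and capitals mark an E2-box, a site type bound by repressors of the Snail and Zeb families.
Ctnna2, chr6:77979816-77979917, minus strand: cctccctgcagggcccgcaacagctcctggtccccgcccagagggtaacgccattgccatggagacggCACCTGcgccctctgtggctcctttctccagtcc
Ctnnd2, chr15:30172284-30172533, plus strand: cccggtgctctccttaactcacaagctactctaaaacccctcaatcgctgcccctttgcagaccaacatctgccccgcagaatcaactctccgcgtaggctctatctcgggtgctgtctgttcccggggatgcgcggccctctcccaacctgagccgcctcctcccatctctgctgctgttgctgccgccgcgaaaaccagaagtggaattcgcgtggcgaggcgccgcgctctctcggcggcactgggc
Ctnnb1, chr9:120933150-120933399, plus strand: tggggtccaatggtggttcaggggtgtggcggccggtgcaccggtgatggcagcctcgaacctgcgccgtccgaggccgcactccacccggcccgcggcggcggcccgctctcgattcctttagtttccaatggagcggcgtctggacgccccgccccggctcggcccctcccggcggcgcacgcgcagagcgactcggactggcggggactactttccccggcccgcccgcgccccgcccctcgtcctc
Ctnna2 is shown over 102 bases because the other bases before its listed start lie inside the gene. GC content was 73.2% with 30 CpG over the 250 bases before the listed start of Ctnna2 (67.6% with 5 CpG over the 102 shown), 62.8% with 21 CpG for Ctnnd2 and 74.8% with 35 CpG for Ctnnb1, against medians of 52.4% and 6 over the 250 bases before 32851 starts. The E2-box was searched on both strands as CAGGTG, and 17.2% of these starts held it. The motif of GATA factors was searched likewise as GATAA, held by 22.6% of them. A TATA box was searched as TATAAA, held by 12.4%, and no match of one motif overlapped another in the windows shown. The E2-box in Ctnna2 was the one match among the windows shown; a match is a description of letters, and its absence says only that these letters are not in the window.

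Per length, the order of the genes differed between the layers. As the union of exons, Ctnna1 has 6425 rather than 3733 bases, Ctnnd1 7319 rather than 6362 and Cdh1 4574 rather than 4430. The order and the gaps without overlap therefore hold for the transcript lengths used here, and were not computed with union exon length. In luminal cells Cdh1 led at 300 ± 36.2 RPKM (CPM per kilobase of the longest coding transcript), above all other members in 5 of 5 libraries. Ctnnb1 (135 ± 29.9 RPKM) and Ctnna1 (112 ± 18.3 RPKM) followed with overlapping ranges, then Ctnnd1 (55.3 ± 6.41 RPKM), which lay below both without overlap. Far below came Cdh13 (3.15 RPKM), Ctnnd2 (1.09 RPKM) and Cdh3 (0.958 RPKM), with overlapping ranges for Ctnnd2 and Cdh3, and Ctnna2, Cdh4 and Cdh2 were at 0.195 RPKM or less, with overlapping ranges between neighbours.

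In basal cells Ctnnb1 (125 ± 18.7 RPKM), Cdh1 (125 ± 13.8 RPKM), Ctnna1 (123 ± 4.67 RPKM) and Cdh3 (120 ± 15.1 RPKM) formed the top, and neighbours in that order overlapped. Ctnnd1 came next at 82.1 ± 10.2 RPKM, below Cdh3 without overlap. Cdh13 (12.7 RPKM), Ctnna2 (5.43 RPKM) and Ctnnd2 (2.66 RPKM) followed, and Cdh2 and Cdh4 were lowest at 0.591 and 0.272 RPKM, with overlapping ranges. Plakoglobin, the relative of beta-catenin that binds the same cadherin site, stood beside beta-catenin in both layers at 136 ± 25.1 and 151 ± 29.2 RPKM, with overlapping ranges.

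**Figure D4:**
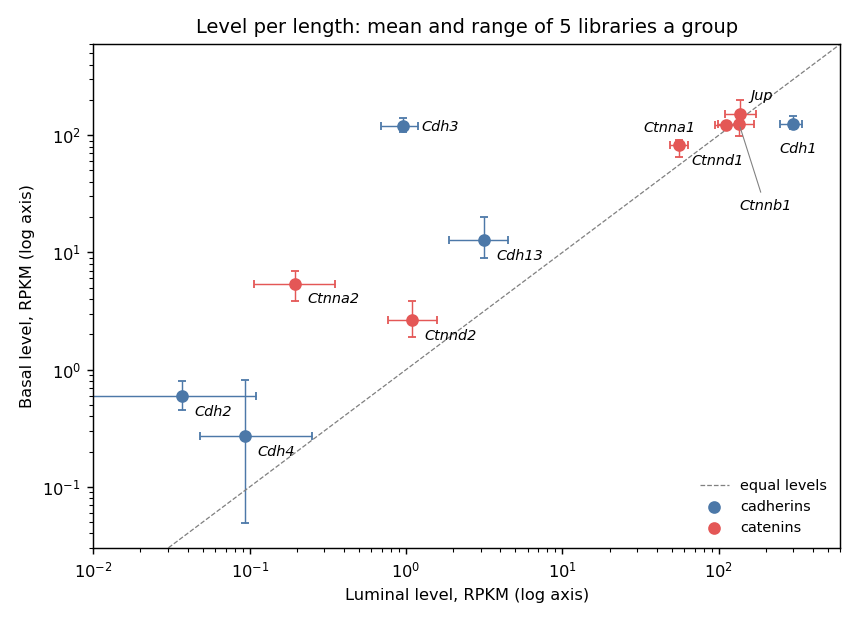
Mean RPKM in luminal (x) against basal cells (y), both axes log, with bars for the range over 5 libraries a group; the luminal range of Cdh2 reaches 0 and runs off the axis. Cdh3 lies far above the line of equal levels, Cdh1 below it, and Ctnna1, Ctnnb1 and Jup on or near it.

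Of the 9 members tested, 7 were called at an edgeR adjusted p under 0.05, where 64.8% of all 14609 genes tested were called. Of these, 1 was higher in luminal cells (33.6% of all genes tested) and 6 were higher in basal cells (31.2% of all genes tested). Groups did not overlap for 7 of the 9, against 50.1% of all genes tested. Cdh2 and Ctnna2 reached the minimum level of the filter on low counts in every basal library but not in every luminal one. Cdh2, at 0 to 10 luminal counts, could pass only through its basal libraries and so had to be higher there. Ctnna2, at 7 to 19 luminal counts, reached that level in some luminal libraries too. Of the 7 other members tested, 1 was called for the luminal side and 4 for the basal side. Their median log2 fold change was -0.57, beside -1.29 over all 9 and 0.05 over all genes tested. In a comparison where most genes differ, being called is thus not particular to these genes.

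The genes whose pattern over the 10 libraries was most like that of Cdh1 (smallest root mean square difference of centred log2(CPM + 1)) were Pip5k1b (0.0875; 28.6 ± 3.16 and 11.9 ± 1.29 CPM in luminal and basal cells), Nudt9 (0.0925) and Chrnb4 (0.129). Chrnb4 was near 0, at 1.62 ± 0.201 and 0.0868 ± 0.163 CPM, where the added 1 shrinks a log2 fold change of 4.05 ± 0.75, so its contrast is not that of Cdh1. For Cdh3 they were Col4a2 (0.267; 6.40 ± 0.867 and 724.9 ± 140.1 CPM), Kctd4 (0.298) and Aebp1 (0.316). Kctd4 was likewise near 0 in luminal cells, at 0.465 ± 0.422 CPM, and its log2 fold change was -8.31 ± 0.40.

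Other genes of the adherens junction were counted from 6 lists of 91 genes, 78 of them tested, with 22 higher in luminal cells, 36 higher in basal cells and 20 not called (74.4% called, beside 64.8% of all genes). Of the 36, 10 reached the filter's minimum level in every basal library but not in every luminal one, and 1 of the 22 did the reverse. Among 7 relatives of the catenins, 3 were higher in luminal cells (33.6% of all genes tested were) and 4 were not called. Their median log2 fold change was 0.19, beside 0.05 for all genes. Arvcf, a p120-catenin relative that binds the same part of the cadherin tail, stood at 24.95 and 10.7 CPM in luminal and basal cells (log2 fold change 1.22 ± 0.21, edgeR adjusted p = 0.000158), opposite in direction to Ctnnd1. Ctnnbip1, an inhibitor of beta-catenin's binding to TCF factors, was also higher in luminal cells (1.19 ± 0.17), as was Ctnnbl1, a splicing-associated protein with armadillo-like repeats (2.81 ± 0.20). Pkp4, another p120-catenin relative, and Jup were not called, at log2 fold changes of -0.46 ± 0.21 (edgeR adjusted p = 0.0664) and -0.15 ± 0.17 (edgeR adjusted p = 0.455).

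The other cadherins, type II and more distant ones, were often low. Of 29, 17 were tested: 3 were called for the luminal side and 10 for the basal side (33.6% and 31.2% of all genes tested), with a median log2 fold change of -2.13. Of the 10, 7 reached the filter's minimum level in every basal library but not in every luminal one, a pattern that favours a basal call. For 1 of the 3 the reverse held. Among the 9 that reached it in every library of both groups, 2 were called for the luminal and 3 for the basal side, with a median of -0.42. Dchs1, the partner of Fat4 (0.365 and 76.1 CPM, log2 fold change -7.76 ± 0.48), Fat2 (0.583 and 36.5 CPM, -5.94 ± 0.63) and Cdh23, a cadherin known from the tip links of inner ear hair cells (43.4 and 881 CPM, -4.34 ± 0.36), had the largest basal differences among those with at least 10 CPM. Dchs1 and Fat2 did not reach the filter's minimum level in every luminal library. Celsr1, a planar polarity cadherin (1.00 ± 0.31), and Cdh18, a type II cadherin (0.35 ± 0.14), were higher in luminal cells.

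Nectins, the immunoglobulin-type adhesion molecules of the same junction, divided evenly. All 6 genes of this list were called, 3 in each direction (64.8% of all genes tested were called). Nectin4 (219.7 and 16.3 CPM, log2 fold change 3.75 ± 0.23), Nectin2 (1.63 ± 0.14) and Afdn, whose product afadin ties nectins to actin (1.36 ± 0.12), were higher in luminal cells. Nectin3 (1.58 and 32.9 CPM, -4.36 ± 0.27), Nectin1 (-1.08 ± 0.25) and Pvr (-0.76 ± 0.19) were higher in basal cells.

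Of 16 linkers from the junction to actin and microtubules, 3 were called for the luminal side and 10 for the basal side (33.6% and 31.2% of all genes tested), with a median log2 fold change of -0.63. Vcl (vinculin, recruited by alpha-catenin under tension) stood at 164 and 465 CPM (-1.50 ± 0.18), unlike Ctnna1 itself, which was not called. Wtip (-2.77 ± 0.17) and Actn1, an actin crosslinker (-2.52 ± 0.18), were higher in basal cells, whereas Ablim1 (3.47 ± 0.22), Camsap3 (1.72 ± 0.20) and Sorbs3 (1.42 ± 0.15) were higher in luminal cells.

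Of 15 genes of cadherin turnover, 5 were called for the luminal side and 6 for the basal side (33.6% and 31.2% of all genes tested). Of the 6, Ptprm did not reach the filter's minimum level in every luminal library. Adam10, the protease that sheds the outer part of E-cadherin, stood at 506 and 63.6 CPM (2.99 ± 0.16), and with it Ptpn1 (1.23 ± 0.23) and Rab11a, of the recycling endosome (0.81 ± 0.14), were higher in luminal cells, as was Cdh1. The phosphatases Ptpn14 (21.1 and 677 CPM, -5.00 ± 0.22) and Ptprm (-4.92 ± 0.31) and the endocytic adaptor Dab2 (-1.88 ± 0.28) were higher in basal cells.

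Of 18 genes for the destruction of beta-catenin and its nuclear partners, 17 were tested, with 5 calls for the luminal side and 7 for the basal side (33.6% and 31.2% of all genes tested). Calls in this list went both ways, and the destruction complex and the nuclear partners were not counted or tested apart. Of the genes for destruction, Fbxw11 (0.95 ± 0.13), Apc (0.89 ± 0.18) and Amer1 (0.85 ± 0.18) were higher in luminal cells, whereas the kinases Gsk3b (-1.47 ± 0.16) and Csnk1a1 (-0.66 ± 0.15), named after their values were seen, were higher in basal cells, and Axin1 and Gsk3a were not called. Of the TCF factors, Tcf7 (4.06 and 34.6 CPM, -3.09 ± 0.21) and Tcf7l1 (-2.12 ± 0.14) were higher in basal cells. Tcf7l2, also named after its values were seen, was higher in luminal cells (51.4 and 39.4 CPM, 0.38 ± 0.16, edgeR adjusted p = 0.0472). Bcl9, likewise named after its values were seen, was higher in basal cells (-0.57 ± 0.17, edgeR adjusted p = 0.00785). The coactivator Pygo1 (-2.75 ± 0.40) and Axin2, a scaffold of the destruction complex and a common target of Wnt signalling (0.851 and 7.33 CPM, -3.08 ± 0.37), were higher in basal cells. Neither reached the filter's minimum level in every luminal library. Pygo2, Bcl9l and the RNA of Ctnnb1 itself were not called.

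**Figure D5:**
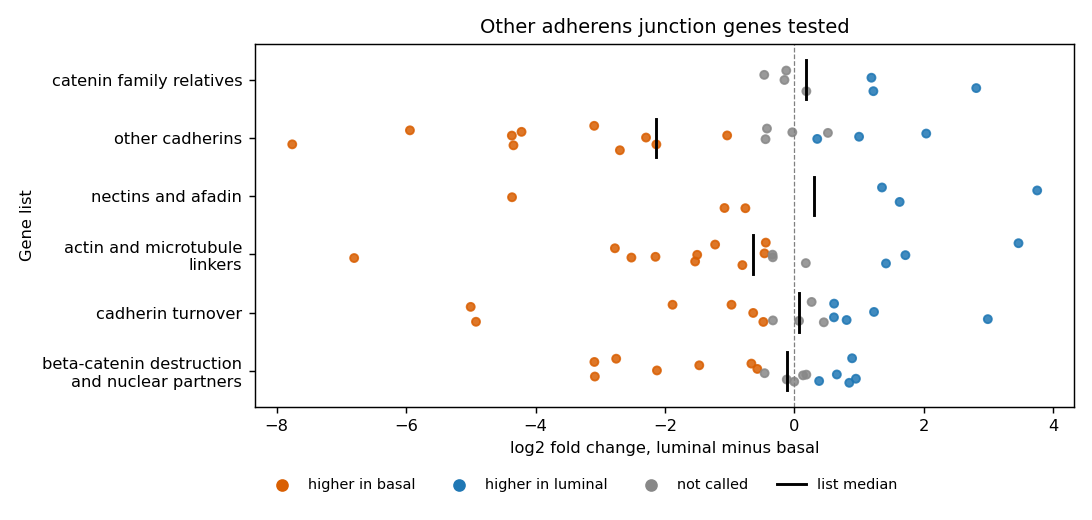
Log2 fold change (luminal minus basal) of the 78 tested genes of the 6 lists, 1 point a gene, coloured by call at an edgeR adjusted p under 0.05, with a bar at each list's median. Calls lie on both sides in each list but the catenin relatives. Of the 10 basal-called other cadherins, 7 did not reach the filter's minimum level in every luminal library.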

How the data were processed

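Per the labels, the study's methods and the submitters' processing notes, libraries were made with a NEBNext Ultra II RNA kit and read as single-end reads of 51 bases. The methods themselves name a NEBNext Ultra RNA kit or, for few cells, a low-input NEBNext kit. Reads were trimmed with cutadapt 4.2 and aligned to mm10 with Bowtie2 2.3.5.1, a tool that does not align across splice junctions. These versions come from the notes, which also list hg19, and the methods give an earlier Bowtie2 version. The counting tool, annotation and strand setting are not given in the sources used here. The authors deposited raw counts per Entrez gene, and 24570 of 24594 identifiers matched RefSeq symbols.

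Counts were fitted with edgeR 4.0.16 (quasi-likelihood test, TMM, filterByExpr, cell type as the only term; Benjamini-Hochberg over 14609 genes, threshold 0.05) in R 4.3.3. SE was computed as the absolute log2 fold change divided by the root of the F statistic. Fits were also run on simulated counts in which only a small part of the genes changed. Most genes tested were called in the data, so that run does not measure false calls in a comparison of this extent. RPKM used the longest coding transcript in GENCODE M21 rather than the tabulated RefSeq span first planned, since that span includes introns. Shares and ratios were compared with exact permutation tests over libraries. Alternatives were other scalings, filters, DESeq2 1.42.0, limma voom 3.58.1, a replicate block, each library left out, and, chosen after seeing the data, union exon length.

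The members, gene lists and marker lists were chosen with earlier results of these data known. Besides all members, named genes were the 3 with the largest change in each direction of each list, among called genes whose higher group averaged 10 CPM or more, plus the p120-catenin and plakoglobin relatives, Vcl, Afdn and Axin2; some genes that the rule names are not reported here, and a few others were named after their values were seen.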

Additional observations from a re-analysis of the deposited data

Results flagged for a closer look

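Of 32 groups of 5 libraries examined for a library apart from the rest (Dixon's test at the 95% level, which chance meets in about 1 of 20 groups, or 1.6 here), 4 had one. Luminal library 4 held Cdh4 at 1.603 CPM, where the other luminal libraries held 0.307 to 0.375 CPM. In the same library the share of Cdh4 among the type I cadherins was 0.0796%, against 0.0146 to 0.0201% in the others. Basal library 4 held Ctnnd1 at 411 CPM, where the other basal libraries held 533 to 577 CPM. Luminal library 5 had a log2 ratio of Cdh3 to Cdh1 of -8.93, against -8.26 to -8.05 in the others.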

How the results depend on the processing

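Over 18 alternative settings, 159 of 160 values of single members kept their direction and their side of the threshold. The exception was Ctnna1, at a log2 fold change of 0.0507 with library totals in place of TMM (edgeR adjusted p = 0.776), a scaling that moves the median of all genes by 0.19; upper-quartile factors move it by 0.12. Cdh4 entered the fit under some settings and was called in 1 of them, without basal replicate 1 (-1.85, edgeR adjusted p = 0.0479), and not without the filter (-1.61, edgeR adjusted p = 0.0945). With the replicate block, no call of a member changed. In exact sign-flip tests of the replicate pairs, the differences in share of Cdh1 (48.9 points), Cdh2 (-0.228) and Cdh3 (-48.5), and in the log2 ratio of Cdh3 to Cdh1 (-8.25), had an adjusted p of 0.075, since 5 pairs allow no p below 0.0625; that of Cdh4 (-0.0808) had the same adjusted p of 0.075, against 0.229 without pairing. With union exon length the difference in share of Cdh2 was -0.139, and no share or ratio changed its call. Same-numbered libraries share a number in their description that the labels do not explain, and their deviations correlated at -0.134 to 0.252, so the numbers were not taken to pair them. Requiring 10 counts in every library left Cdh2 and Ctnna2 out of the fit, so 4 members in place of 6 were called for the basal side, and among the other junction genes basal calls went from 36 to 25 and luminal calls from 22 to 21. The luminal level of Cdh2 rests on 15 counts.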
